A study of Mus musculus with 14 samples.

Results

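The 10 genes described here are immediate early genes, which are transcribed within minutes of a stimulus from factors already present in the cell: Fos, Fosb, Fosl1, Jun, Junb, Atf3, Egr1, Egr3, Ier2 and Nr4a1. They were chosen by name, as the rows of the count tables whose symbol matched one of these, and are 10 of 55291 symbols. Bulk RNA-Seq was available for 14 samples of mouse esophagus from wild type C57BL/6 animals, for which the labels give no transgene or treatment. There were 5 aged and 4 young samples of epithelium and 3 aged and 2 young samples of stroma, where aged means at least 18 months and young at most 4 months. Each sample came from 1 mouse, and mice O1, O2, O3 (aged), Y1 and Y3 (young) gave both layers. Mice OF5, OM8 (aged), YF5 and YM4 (young) gave epithelium only, and their codes hold a further letter; these 4 are called lettered and the other 5 epithelial samples numbered. The epithelium was the mucosal layer left after the muscle was pulled off with forceps, and the times from death to peeling and to lysis were not given.

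FOS, FOSB and FOSL1 pair with JUN or JUNB to form AP-1, a transcription factor that binds DNA as a dimer, and ATF3 is a stress-induced factor of the same bZIP family. EGR1 and EGR3 are zinc finger factors, NR4A1 is an orphan nuclear receptor and IER2 is a nuclear protein induced by growth factors. Their promoters are switched on through serum response factor (SRF) with ternary complex factors, which answer MAP kinases, and through CREB. Dissection, wounding and enzyme treatment of tissue are known to induce several of them, so that their RNA can record the handling of a tissue as well as its state. In squamous epithelium AP-1 factors also take part in differentiation, and NR4A receptors are known from exercised skeletal muscle, which surrounds the mouse esophagus.

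Promoter sequences of 6 of the 10 genes (Fos, Fosb, Jun, Junb, Atf3 and Nr4a1) were found in RefSeq (GRCm38.p6). Those of Fos, Junb and Nr4a1 are shown as the 250 bases before the start of transcription, because these genes were, in turn, not called between the layers, higher in epithelium and higher in stroma. The windows lie at chr12:85473640-85473889 on the plus strand, chr8:84978749-84978998 on the minus strand and chr15:101266596-101266845 on the plus strand. The Fos and Junb windows lie outside the annotated gene, and that of Nr4a1 lies in an intron of the annotated gene, which has further starts upstream. Capitals mark matches to the cAMP response element (CRE) half-site TGACG, the EGR site GCGNGGGCG or the TATA box TATAAA, on either strand:
Fos: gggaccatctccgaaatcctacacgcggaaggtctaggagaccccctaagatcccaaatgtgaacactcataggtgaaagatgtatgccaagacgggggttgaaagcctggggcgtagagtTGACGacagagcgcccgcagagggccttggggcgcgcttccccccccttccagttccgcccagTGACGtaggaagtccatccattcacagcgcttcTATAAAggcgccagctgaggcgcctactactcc
Junb: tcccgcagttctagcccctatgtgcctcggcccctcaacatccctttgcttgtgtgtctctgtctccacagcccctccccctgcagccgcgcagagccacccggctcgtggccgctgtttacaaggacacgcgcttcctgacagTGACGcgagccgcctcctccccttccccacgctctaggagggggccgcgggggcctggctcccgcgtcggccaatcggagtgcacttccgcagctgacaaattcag
Nr4a1: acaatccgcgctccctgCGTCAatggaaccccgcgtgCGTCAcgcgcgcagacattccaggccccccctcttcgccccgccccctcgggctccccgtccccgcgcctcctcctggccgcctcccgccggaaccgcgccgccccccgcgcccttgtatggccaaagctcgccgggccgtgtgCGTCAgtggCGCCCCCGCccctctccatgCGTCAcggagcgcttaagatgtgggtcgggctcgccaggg
Fos held CRE half-sites at 129 to 125 and at 66 to 62 bases before the start and a TATA box at 33 to 28. Junb held 1 half-site, at 106 to 102 bases. Nr4a1 held 4 half-sites and 1 EGR site, at 60 to 52 bases. A half-site was present in 17.8% of all 32851 promoters of the same length, 2 or more in 3.9% and 4 or more in 0.137%, an EGR site in 4.7% and a TATA box in 12.4%. G and C made up 74.4% of the Nr4a1 window, against a median of 52.4% over all promoters, and these shares were not matched for it. The full CRE, TGACGTCA (1.55% of promoters, and overlapping its half-site), the AP-1 site TGANTCA (6.75%) and the CArG box bound by SRF (1.47%) had no match in any of the 6 windows, and that of Jun had no match to any motif searched. The 2 remaining windows with matches were those of Fosb, with 1 half-site and 1 EGR site, and of Atf3, with 1 half-site. Bases farther than 250 from the start were not searched, so that sites there would not be seen.

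The libraries differed in depth. Counts in protein-coding genes ranged from 6665526 to 8109419 in stroma, from 7971284 to 11067320 in numbered epithelium and from 1042394 to 1433857 in lettered epithelium, where 63.9% to 73.9% of counts fell on 1 ribosomal RNA locus. Values are given as normalized counts, which are CPM on library sizes scaled by the TMM method over all 14 samples unless said otherwise. A floor of 3 counts corresponded to 0.707 to 1.25 normalized counts in the lettered samples and to 0.0872 to 0.175 in the others, and covers counting error only. All 8 squamous epithelial markers were higher in epithelium and all 12 skeletal muscle markers were lower, with summed levels of 17159 to 54227 against 47.3 to 452 and of 169 to 1855 against 42353 to 76538. Summed levels of endothelial markers were 12.5 to 25.3 in epithelium and 35.2 to 103 in stroma, and those of leukocyte markers 22 to 72.0 and 65.2 to 342. Those of fibroblast markers, 280 to 632 in epithelium and 415 to 1031 in stroma, overlapped, as did those of smooth muscle markers (333 to 835 and 303 to 2051). The stroma thus carried much skeletal muscle RNA, and the epithelium also held fibroblast and smooth muscle RNA. Each difference below compares such a squamous layer with such a stroma. Fewer cells of a type and less RNA per cell cannot be told apart in these bulk samples.

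In the GENCODE M21 annotation of GRCm38 all 10 are protein-coding. The AP-1 genes are Fos (chr12:85473890-85477273), Fosb (chr7:19302696-19310051), Fosl1 (chr19:5447547-5455946), Jun (chr4:95049034-95052222) and Junb (chr8:84974484-84978718). Atf3 lies at chr1:191170296-191218039, Egr1 at chr18:34859823-34864984, Egr3 at chr14:70077203-70082614, Ier2 at chr8:84661331-84662852 and Nr4a1 at chr15:101254269-101274795. Jun and Ier2 have a single exon, and reads were counted over the exons of each gene.

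In epithelium, Jun had the highest level per length, 20.4 ± 5.30 normalized counts per kilobase of exon (SD, n = 9). It was followed by Junb (15.4 ± 3.01), Ier2 (8.95 ± 1.89), Egr1 (6.24 ± 2.62) and Egr3 (3.21 ± 0.403), and each of these exceeded the next in 8 or 9 of 9 samples. Fos (2.55 ± 1.68) lay below Egr3 in 6 of 9 samples, so that these neighbours were not separated beyond their spread. Atf3 came next at 0.829 ± 0.522, and Nr4a1, Fosl1 and Fosb were between 0.261 and 0.319 without a clear order. In stroma, Jun was again first at 24.2 ± 5.56 normalized counts per kilobase (n = 5). Nr4a1 was second at 7.41 ± 3.99 and lay above Junb (3.01 ± 0.747) in 5 of 5 samples, whereas Atf3, Fos, Egr1 and Ier2 (2.39 to 1.26) were not separated.

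**Figure D1:**
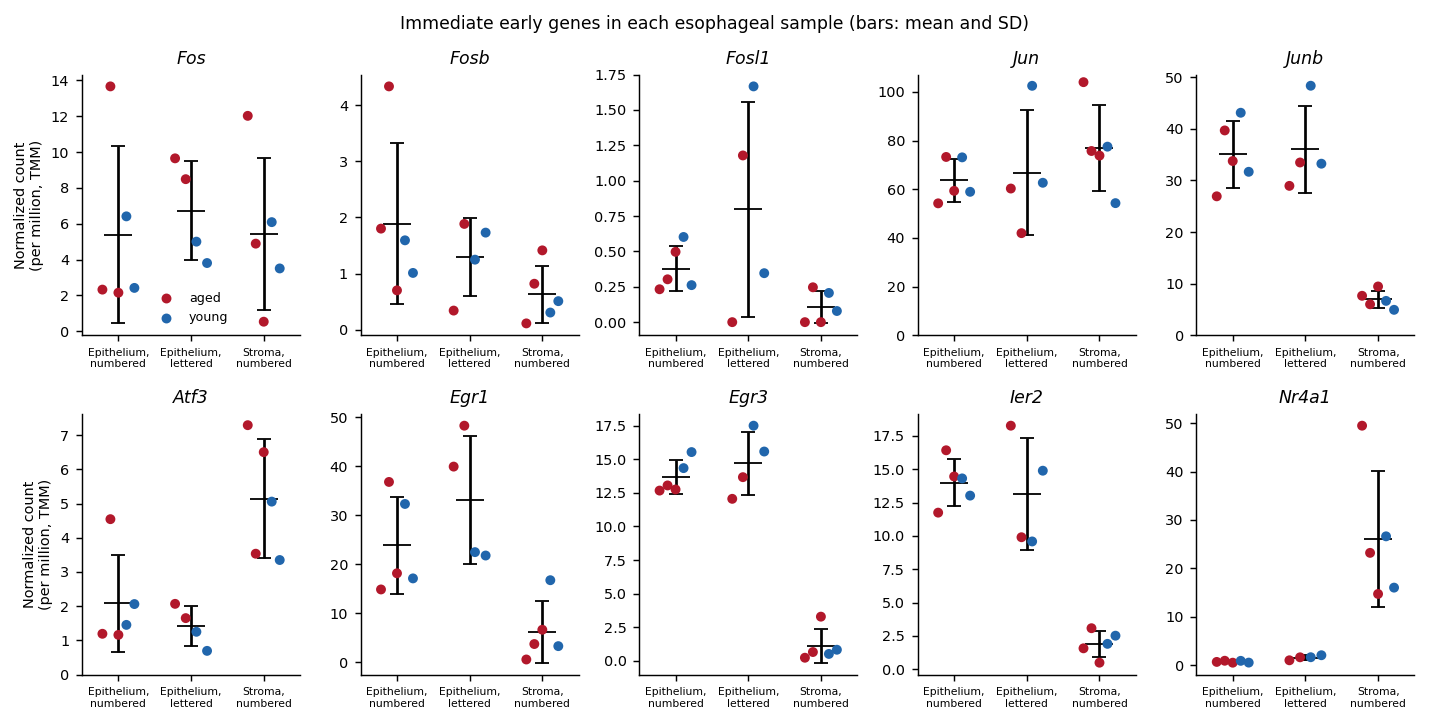
Normalized counts of the 10 genes in every sample, in numbered epithelium (n = 5), lettered epithelium (n = 4) and stroma (n = 5), with aged mice in red and young mice in blue; crosses give the mean and SD. Junb, Egr3 and Ier2 lay higher in every epithelial than in every stromal sample, Nr4a1 lower, and Fos and Jun overlapped.

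The first comparison asked which immediate early genes differed between epithelium and stroma. Of the 9 genes that passed the filter on low counts, 4 were higher in epithelium (Junb, Egr1, Egr3 and Ier2), 2 were lower (Atf3 and Nr4a1) and 3 did not pass the test (Fos, Fosb and Jun). Over all genes tested, 56.2% were called, 26.1% higher and 30.1% lower, so that the share of these genes called, 6 of 9, is near that of the genome. Their median log2 fold change was 1.38, and that of all genes was -0.05. Junb, Egr3 and Ier2 lay above and Nr4a1 below stroma without overlap between the layers, which was the case for 14.4% (above) and 16.9% (below) of all genes.

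Junb, an AP-1 subunit, was 33.5 normalized counts at the median of 9 epithelial samples, with a lowest value of 26.9 and a highest of 48.3. In stroma it was 7.64 in O1, 6.00 in O2, 9.45 in O3, 6.66 in Y1 and 4.92 in Y3. The layers did not overlap, and the log2 fold change was 2.35 ± 0.20 (SE), a 5.10-fold difference with a 95% interval of 3.84 to 6.77 (edgeR quasi-likelihood test, Benjamini-Hochberg adjusted p = 2.95e-09). Junb shares 173 exonic bases with Prdx2 on the opposite strand, and the strand setting of the counting was not given in the sources used here, so that reads of the 2 genes cannot be told apart there.

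Ier2 ranged from 9.58 through a median of 14.3 to 18.3 normalized counts in epithelium. In stroma it was 1.58 in O1, 3.08 in O2, 0.497 in O3, 1.91 in Y1 and 2.52 in Y3. All epithelial samples were higher, by a log2 fold change of 2.83 ± 0.32 (edgeR adjusted p = 2.84e-07).

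The EGR genes were both higher in epithelium, by very unequal spreads. Egr3 was 12.1 at the lowest, 13.7 at the median and 17.5 normalized counts at the highest of the epithelial samples. Its stromal values were 0.233 in O1, 0.657 in O2, 3.29 in O3, 0.516 in Y1 and 0.827 in Y3, so that 1 stromal sample stood apart from the other 4. The log2 fold change of Egr3 was 3.62 ± 0.43 (12.3-fold, 95% interval 6.59 to 23.0, edgeR adjusted p = 6.07e-07), and 4.61 without mouse O3. The O3 stroma also had the highest summed leukocyte markers (342 against 65.2 to 116 in the other stromal samples). Its endothelial (103) and fibroblast sums (1031) were the highest of the stromal samples too, and its skeletal muscle sum (42353) was the lowest. The part of this composition in the Egr3 value was not tested. Egr1 ranged from 14.9 through 22.5 to 48.3 normalized counts in epithelium. In stroma it was 0.583 in O1, 3.74 in O2, 6.66 in O3, 16.8 in Y1 and 3.31 in Y3, so that the Y1 stroma reached into the epithelial range. Its log2 fold change was 2.16 ± 0.56 (edgeR adjusted p = 0.00429), and 2.92 without mouse Y1.

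Nr4a1 was the gene with the largest difference among the 9, and in the other direction. It was 0.538 at the lowest, 0.939 at the median and 2.08 normalized counts at the highest in epithelium, with 3 to 7 counts in each lettered sample. In stroma it was 49.5 in O1, 23.2 in O2, 14.7 in O3, 26.6 in Y1 and 16 in Y3. Every stromal sample was higher, by 28.5-fold with a 95% interval of 17.6 to 46.2 (log2 fold change -4.83 ± 0.33, edgeR adjusted p = 1.84e-10). The 12 skeletal muscle markers differed in the same direction, and their part in the Nr4a1 difference was not tested. Nr4a3, the paralog of Nr4a1, which is not among the 10, was also lower in epithelium, at 0 to 1.66 against 7.41 to 46.8 normalized counts (log2 fold change -4.57, edgeR adjusted p = 5.49e-08). Nr4a2, the third receptor, was named after its values were seen: it was at 0.417 to 3.12 in epithelium and 0.765 to 3.85 in stroma and was not called.

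Atf3 ranged from 0.692 through 1.45 to 4.54 normalized counts in epithelium. In stroma it was 7.29 in O1, 3.53 in O2, 6.5 in O3, 5.06 in Y1 and 3.35 in Y3. The layers overlapped only through the O2 epithelium, and the log2 fold change was -1.46 ± 0.37 (edgeR adjusted p = 0.00222). With mouse as a block, in the 10 paired samples, the change was -1.33 and no longer passed the test (edgeR adjusted p = 0.0555).

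Fos was 2.15 at the lowest, 5.0 at the median and 13.7 normalized counts at the highest in epithelium. In stroma it was 12 in O1, 4.89 in O2, 0.536 in O3, 6.09 in Y1 and 3.51 in Y3. The ranges overlapped, although the O3 stroma lay below every epithelial sample, and the log2 fold change of 0.14 ± 0.56 had a 95% interval of -1.04 to 1.32 (edgeR adjusted p = 0.846), which turned to -0.21 without mouse O2 and -0.03 without O3. Jun, the main partner of FOS, was 42.0 to 103 in epithelium and 54.3 to 104 in stroma, with a log2 fold change of -0.24 ± 0.19 (edgeR adjusted p = 0.284). Fosb was 0.345 to 4.33 in epithelium and 0.117 to 1.42 in stroma, and its log2 fold change of 1.38 ± 0.61 missed the threshold (edgeR adjusted p = 0.0606). Without mouse O3 it was 2.01 and passed (edgeR adjusted p = 0.0109), as it did without mouse OF5 (1.49, adjusted p = 0.0414). Fosl1 had 0 to 17 counts in every sample and was not tested. Of its 2033 exonic bases, 1163 are shared with Ccdc85b on the opposite strand.

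**Figure D2:**
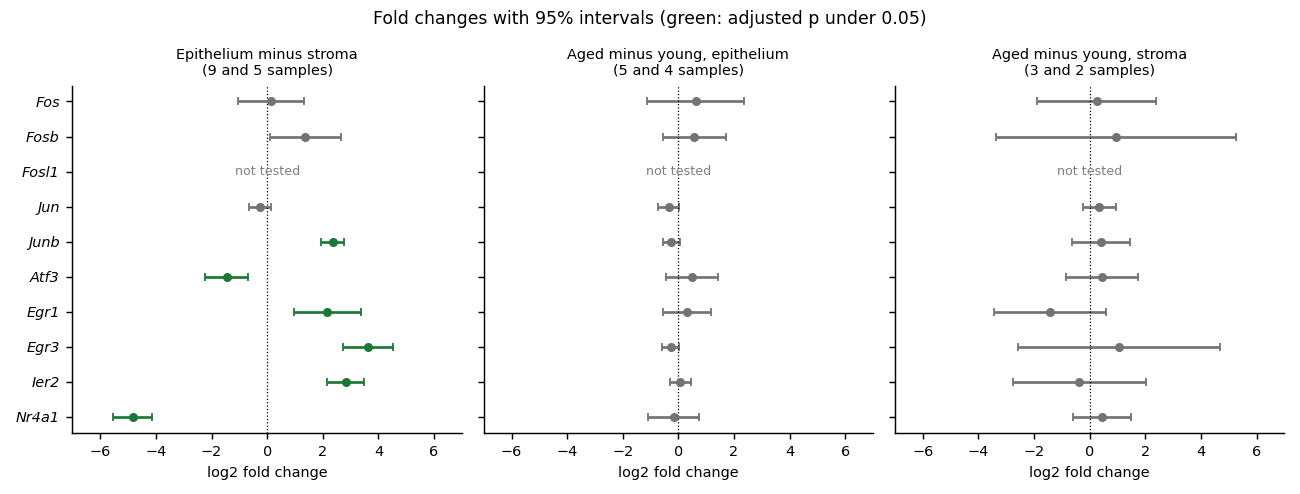
Log2 fold changes of the 10 genes with 95% intervals, for epithelium minus stroma (9 and 5 samples), aged minus young epithelium (5 and 4) and aged minus young stroma (3 and 2); green marks an edgeR adjusted p under 0.05. The 6 called genes are all in the comparison of layers, and Fosl1 was not tested.

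Since 5 mice gave both layers, the difference was also taken within each mouse. It had the same sign in all 5 mice for Junb, Egr1, Egr3 and Ier2, which were higher in epithelium, and for Nr4a1, which was lower. Fosl1 had 8 to 17 counts in the epithelium and 0 to 6 in the stroma of these mice, too near the floor of 3 counts for its sign to be read. Nr4a1 differed by -5.95 in O1, -4.49 in O2, -4.53 in O3, -4.71 in Y1 and -4.62 in Y3 on the log2 scale, and Junb by 1.80, 2.71, 1.83, 2.68 and 2.66 in the same order. The SD of these differences over the 5 mice was 0.618 for Nr4a1, where O1 stood apart, and 0.475 for Junb. It was smaller, 0.413, for Jun, which was lower in epithelium in 4 mice, and 1.66 for Fos. Fos differed by -2.32 in O1, 1.46 in O2, 1.82 in O3, 0.07 in Y1 and -0.52 in Y3, so that the layer with more Fos changed from mouse to mouse. Atf3 was lower in epithelium in 4 mice and higher, by 0.35, in O2.

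**Figure D3:**
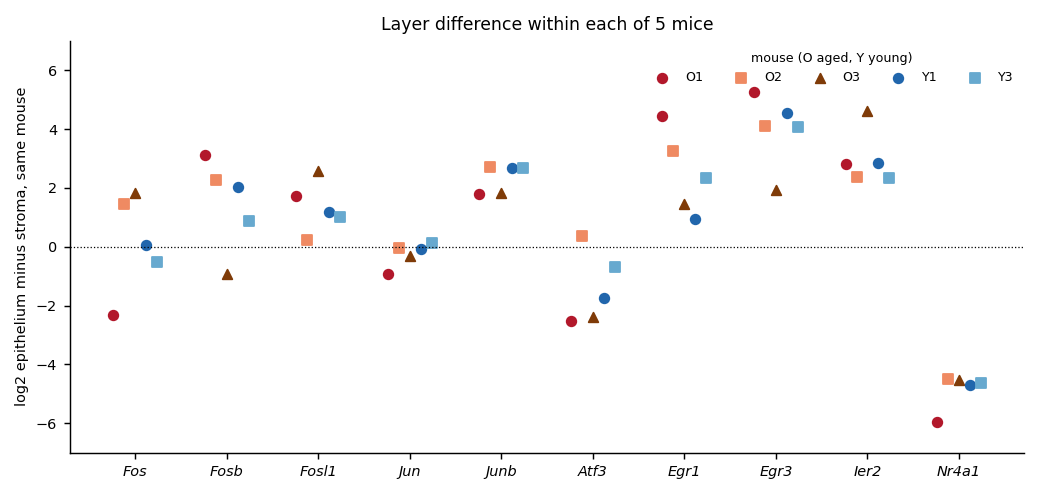
Log2 level in epithelium minus stroma of the same mouse for each of the 10 genes, with 1 symbol for each of the 5 mice. Nr4a1 lies between -5.95 and -4.49 in every mouse and Junb between 1.80 and 2.71, while Fos runs from -2.32 to 1.82.

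The other genes of the response were counted by layer in lists chosen with earlier results of these data known, and each count stands beside 26.1% higher and 30.1% lower among all genes tested. Of 12 tested immediate early transcription factors outside the 10, 7 were higher in epithelium and 3 lower. They included Klf4, a factor of squamous differentiation, with a log2 fold change of 3.12 (SE 0.20), the AP-1 subunit Fosl2 with 2.39 and Myc with 2.30. Of 28 other immediate early genes, 14 were higher and 8 lower. Among these Plk3, a stress-activated kinase, differed by 5.31, the phosphatase Dusp5 by 3.71, the kinase Sgk1 by 2.63 and Gadd45g, a stress sensor, by -3.22. Of 7 ligands of the response 3 were tested, and the EGF receptor ligands Ereg and Hbegf were higher, by 6.09 and 3.21. Cxcl1, Cxcl2, Ccl2 and Il6 did not pass the filter on low counts. Their low mean levels were higher in stroma, as for Ccl2 (0.186 normalized counts in epithelium and 1.43 in stroma). The median log2 fold change was 1.08 for the transcription factors and 0.82 for the other immediate early genes, against -0.05 for all genes.

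The factors that act upstream of these promoters were counted in the same way. Of 12 SRF, ternary complex and CREB factors, 7 were lower in epithelium and 0 higher, against 30.1% lower and 26.1% higher among all genes: Srf by -1.66, the CREB coactivator Crtc3 by -0.94, the ternary complex factor Elk4 by -0.66 and Atf1 by -0.55. Read against the same shares, the MAP kinases were mixed, with 8 of 17 higher, such as Mapk3 (ERK1) at 1.75 and Rps6ka4 at 1.51, and 5 lower, such as Mapkapk2 at -1.50 and Map2k7 at -1.18. Of 8 tested bZIP partners of AP-1, 4 were lower, among them Atf2 at -0.73, Mafg at -0.67 and Mafk at -0.64. Both corepressors of EGR proteins were higher, Nab1 by 1.61 and Nab2 by 1.43. Of 8 heat shock genes, which report protein stress, Dnajb1 (2.16) and Hspb1 (0.84) were higher and none was lower, so that 2 of 8 higher is near the share of all genes.

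The second comparison asked whether these genes differed between aged and young epithelium. None of the 9 genes tested was called, where 0.0126% of all genes were (2 of 15859, and 509 at an unadjusted p under 0.05). None of the 9 had an unadjusted p under 0.05 with edgeR, and DESeq2, which gave no adjusted p for Fosb, Atf3 and Nr4a1, called none of the other 6, although Egr3 had an unadjusted p of 0.0342. In the lettered samples alone 3 of 6 tested genes had an unadjusted edgeR p under 0.05: Egr1 (log2 fold change 1.02, adjusted p = 0.398), Fos (1.07, adjusted p = 0.612) and Jun (-0.66, adjusted p = 0.604). Jun and Junb did without mouse O2 and without Y3, Egr1 without Y1 and Jun without a filter on low counts, and none of these was called after adjustment. The estimates had 95% intervals from -1.12 to 2.36 for Fos and from -0.57 to 0.01 for Egr3, so that 5 and 4 samples left the difference in Fos far less certain than that in Egr3. The fold changes of Fos (0.62), Fosb (0.57) and Atf3 (0.48) became -0.19, -0.12 and -0.18 without mouse O2. Within the forms of code that of Fos was 0.45 in numbered and 1.07 in lettered samples, neither called.

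Egr3 and Jun had the smallest p among the 9 genes. Egr3 was 12.7 in O1, 13.1 in O2, 12.8 in O3, 12.1 in OF5 and 13.7 in OM8, all aged. In the young mice it was 14.3 in Y1, 15.5 in Y3, 17.5 in YF5 and 15.6 in YM4. On this scale aged lay below young without overlap, as for 0.391% of all genes, and scaled over the 9 epithelial samples alone the groups overlapped, at 9.54 to 11.5 against 10.7 to 14.8. On that scale the aged were still the lower within each form of mouse code, at 9.54 to 9.68 against 10.7 and 11.8 in numbered and 10.4 and 11.5 against 14.8 and 13.8 in lettered samples. The log2 fold change was small, -0.28 ± 0.14 (edgeR adjusted p = 0.99959), and within the forms it was -0.23 (numbered) and -0.33 (lettered). Jun was lower in aged epithelium by -0.36 ± 0.17 without passing the test (edgeR adjusted p = 0.99959), at 42.0 to 73.3 against 58.9 to 103 normalized counts.

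In stroma none of the 9 genes tested was called between 3 aged and 2 young samples, and none of 21323 genes was (0%, edgeR, with 776 at an unadjusted p under 0.05 and 2 called by DESeq2). The estimates ran from -1.44 for Egr1 to 1.05 for Egr3, each resting on 1 sample: Egr1 became 0.14 without mouse Y1 and Egr3 -0.61 without mouse O3. Within 3 lists of markers of other cell types all estimates had one sign, although no marker was called. All 8 squamous markers had positive estimates (median 2.21, summed levels 56.4 to 452 in aged and 47.3 and 77.9 in young stroma), as had all 5 smooth muscle markers (median 1.56, 816 to 2051 against 303 and 599.9). All 4 Schwann cell markers had negative ones (median -1.31, 10.7 to 36.1 against 44.7 and 61.8). The part of these markers in the estimates was not tested. In aged stroma Nr4a1 ranged from 14.7 to 49.5, and the young samples, at 16 and 26.6, lay within that range, with a 95% interval of its log2 fold change of -0.62 to 1.48. The age difference itself was compared between the layers in the 5 mice with both, and none of the 10 genes was called (0% of 22771 genes with edgeR, 979 at an unadjusted p under 0.05 and 62 called by DESeq2), with the smallest unadjusted edgeR p at 0.178 for Junb.

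The third question was how far the genes varied between samples of one layer. With age and form of code removed, the SD of log2 levels over the 9 epithelial samples was 1.02 for Fosb, 0.979 for Fos, 0.710 for Atf3 and 0.575 for Egr1, above the median of 0.399 over all genes tested. It was 0.363 for Ier2, 0.359 for Nr4a1, 0.337 for Jun, 0.252 for Junb and 0.0783 for Egr3, below that median. The genes thus fell on both sides, and only 0.536% of all genes had a smaller SD than Egr3. Egr3 had 35 to 58 counts in the lettered samples, where counting error alone adds to the spread. How its SD compares with that error was not tested, so that its true variation may be larger. Which genes lay above the median changed with the form of code, taken over 5 numbered or 4 lettered samples with age removed. Fos had 11 to 36 counts in the lettered samples, and the difference between the forms was not tested. In numbered samples alone Fos (1.33) and Egr1 (0.660) lay above a median of 0.229. In lettered samples alone Fos (0.176) and Egr1 (0.132) lay below a median of 0.323, and Jun (0.421) and Ier2 (0.533) above it. Egr3 lay below the median in both forms (0.0496 and 0.102). Since low counts also widen the spread, the dispersion of each gene was set beside the trend at its own level. The ratio of the biological coefficients of variation was 2.99 for Fos and 2.26 for Egr1, 1.68 for Fosb and 1.48 for Atf3, and 0.753 for Egr3. In stroma the SD was 1.81 for Fos, 1.71 for Egr1, 1.43 for Egr3 and 0.294 for Jun, beside a median of 0.794. The SD of Egr3 was thus among the smallest in epithelium and not in stroma, where the gene had only 4 to 86 counts. Beside the trend at their level, the ratio in stroma was 1.35 for Fos, 1.39 for Egr1 and 0.932 for Egr3. The dispersion of Egr3 in stroma was therefore not above that of genes at its level.

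**Figure D4:**
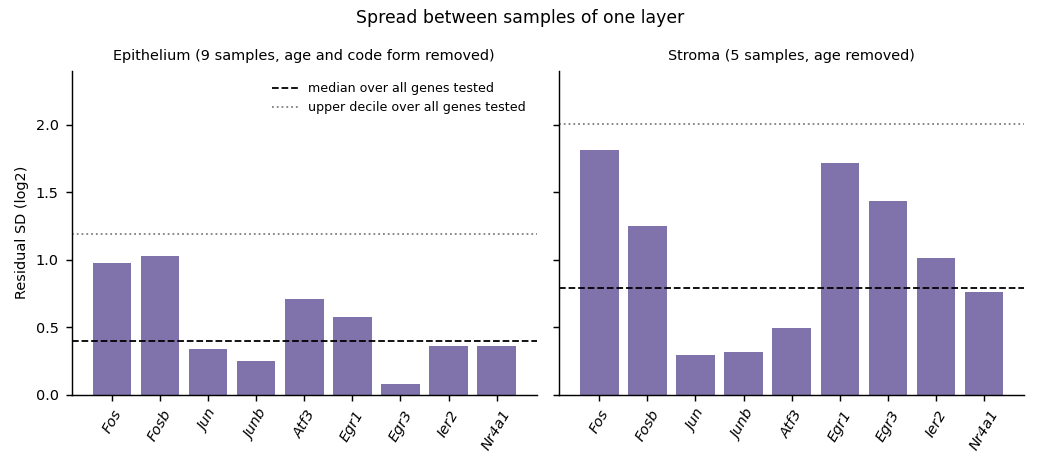
Residual SD of log2 levels of 9 genes between the 9 epithelial samples and between the 5 stromal samples, with the median (dashed) and upper decile (dotted) over all genes tested in that layer. In epithelium Fos, Fosb, Atf3 and Egr1 lie above the median of 0.399 and Egr3, at 0.0783, far below it.

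Samples differed in which genes were high. The O2 epithelium was the highest of the 5 numbered samples in 7 of the 10 genes. This count was not set beside the share of all genes. O2 exceeded the next sample by only 1.002 times in Jun, 1.02 times in Nr4a1 and 1.14 times in Egr1 and in Ier2. Its Fos level, 13.7 normalized counts, was 5.76 times the median of the other 4, its Atf3 level 3.44 times, its Fosb level 3.32 times and its Egr1 level 2.09 times. Egr3 (0.963 times), Junb (1.21) and Jun (1.24) were close to the other samples. The O2 and O1 epithelium had like summed leukocyte markers (39.7 and 39.4) and squamous markers (49281 and 44098). The sum of the 8 heat shock genes was 1753 in O2, below O1 (2441) and Y1 (2785) and above O3 (974) and Y3 (786), and the part of composition or of protein stress in the high Fos of O2 was not tested. O1 was the lowest numbered sample in 6 genes and O3 in 4.

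**Figure D5:**
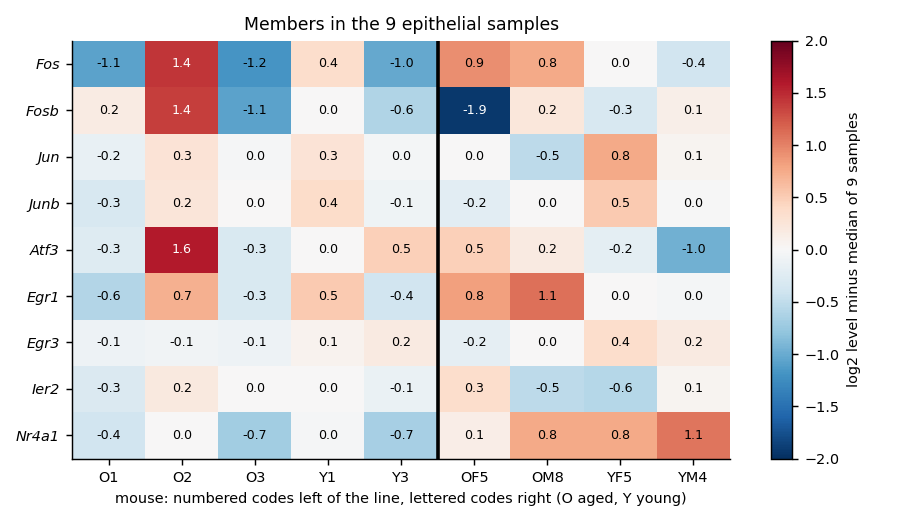
Log2 level of 9 genes in each of the 9 epithelial samples minus the median of the 9, with numbered mouse codes left of the line and lettered ones right (O aged, Y young). O2 is high in Fos, Fosb, Atf3 and Egr1 together, OF5 and OM8 in Fos and Egr1, and the Egr3 row is nearly flat.

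Over the 9 epithelial samples, with the mean of each form of code subtracted, the 5 genes most like Fos among 5322 with an average log2 level of at least 3 were Egr1 (Pearson r = 0.909), Trib1 (0.834), Mprip (0.816), Gm6548 (0.812) and Ergic3 (0.784). Egr1 was 36.8 in O2, 40.0 in OF5 and 48.3 normalized counts in OM8, the 3 samples with most Fos, and 14.9 to 32.3 in the other 6. Trib1, which codes for a pseudokinase and stood in the list of immediate early genes, was 12.4 in O2, 15.2 in OF5 and 15.3 in OM8 and 7.35 to 12.1 in the others. Atf3 had r = 0.817 but was below the level required, while Junb (0.296), Jun (0.0892) and Egr3 (-0.39) followed Fos little or not. These values describe 9 samples that share libraries of unequal depth, and the highest of many correlations is large by selection.

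The 2 forms of mouse code, which differ in depth and in the share of ribosomal RNA, were compared within epithelium with age in the fit. None of the 9 genes tested was called in either direction, where 6.73% of all genes were called higher and 7.30% lower in the lettered samples. Nr4a1 was the nearest, at 0.698 in O1, 0.939 in O2, 0.538 in O3, 0.921 in Y1 and 0.556 in Y3 against 1.03 in OF5, 1.65 in OM8, 1.67 in YF5 and 2.08 in YM4. The lettered samples lay higher without overlap, as for 3.07% of all genes on this scale, and the log2 fold change was 1.30 ± 0.48 (edgeR adjusted p = 0.0777), which DESeq2 called (1.35, adjusted p = 0.0208). The lettered values rest on 3 to 7 counts, near the floor of 3. Among the other lists, 5 of 8 heat shock genes were lower in the lettered samples: Hsp90aa1 (-2.46), Hspa8 (-1.68), Dnajb1 (-1.35), Hspe1 (-1.15) and Hspb1 (-0.60). Nfkbiz (1.19), Trib1 (0.70), Plk2 (0.53), the ligand Hbegf (0.60), Map2k7 (0.80) and Mafg (0.84) were higher and Dusp5 (-0.84) lower. With them 6 of 8 squamous markers were lower in the lettered samples, with sums of 17159 to 27914 against 41698 to 54227, while the leukocyte marker Ptprc (1.14) and the smooth muscle marker Smtn (0.62) were higher. The part of depth and of this composition in these values was not tested.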

How the data were processed

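Bulk RNA-Seq of peeled esophageal epithelium (9 samples) and of stroma (5 samples) was used. The authors deposited raw counts of reads per gene for each sample, without normalization. Libraries were made from oligo(dT)-enriched RNA. The aligner was Rsubread (genome GRCm38.p6) and the counter featureCounts, by gene; its strand and multi-mapping settings are not given in the sources used here. Genes were matched by symbol (53292 of 55291 in GENCODE M21), and groups were taken from the sample labels.

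Tests used edgeR 4.0.16 under R 4.3.3 (TMM, filterByExpr with a minimum count of 10, robust quasi-likelihood fit, Benjamini-Hochberg adjustment over all genes tested, threshold 0.05), after the script had been tested on simulated data. Layers were compared over 14 samples without a covariate (the study compared them with DESeq2, and its model formula is not given in the sources used here), age in epithelium with code form (numbered or lettered) as covariate, age in stroma, and age by layer in the 5 paired mice. Log2 levels used a prior count of 2. Replicates of a group differed beyond sampling noise in all 20 pairs. Layers of 1 mouse are paired by the shared code, and their deviations from the group means correlated at 0.0390 to 0.111 over 22771 genes. Sequences came from RefSeq. All 10 genes are named, and of each other list up to 4 called genes with the largest fold change and an average log2 level of at least 3, unless said otherwise; the genes, lists and tests were chosen with earlier results of these data known. DESeq2 1.42.0 and other scalings, filters, covariates and sample subsets were run as alternatives. The paper's single-cell data were not analysed here.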

Additional observations from a re-analysis of the deposited data

How the results depend on the processing

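The comparison of layers called 6 of the genes and 4 to 7 under each alternative. Leaving out single mice gave 6 to 7. With mouse as replicate block in the 5 mice with both layers 5 were called, Atf3 (-1.33) being lost, among 8689 of 22771 genes, and 6 without the block; the block changed no other call. With at least 10 counts in every sample only 5 of the genes could be tested and 4 were called, Jun among them (-0.55), and Fos turned to -0.18. DESeq2 called Fosb and gave no adjusted p for Egr3 (log2 fold change 3.61). No member was called by age or in the interaction under any alternative run, and by form of code DESeq2 called 1. The number of genes with a spread above the median was 4, but 7 in numbered and 2 in lettered samples alone (of 10 and 6 tested), and 4 to 6 without single mice.

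Directions of uncalled changes turned for Egr1 by age in numbered epithelium (-0.10), Ier2 by form of code without a filter (-0.025) and Fosb in the interaction with the replicate block (0.11). With single mice left out, Fos by layer ran from -0.21 to 0.77. By age in epithelium Fos ran from -0.19 to 1.18, Fosb from -0.12 to 0.86, Atf3 from -0.18 to 0.74 and Ier2 from -0.061 to 0.17. By form of code Fosb ran from -0.55 to 0.27, Atf3 from -0.52 to 0.20, Ier2 from -0.14 to 0.27 and Jun from -0.036 to 0.35. By age in stroma Fos ran from -0.82 to 0.77, Nr4a1 from -0.16 to 0.82, Egr3 from -0.61 to 1.55, Ier2 from -1.15 to 0.044 and Egr1 from -2.21 to 0.14. In the interaction Fosl1 ran from -0.016 to 4.56, Atf3 from -1.36 to 0.40, Nr4a1 from -0.88 to 0.086, Fos from -1.39 to 1.55, Fosb from -1.08 to 1.04, Egr3 from -1.86 to 0.36 and Ier2 from -0.0072 to 1.01. The cause of these turns was not tested.

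Over all genes, no filter raised the called genes from 9441 to 14026 by layer, from 2 to 36 by age in epithelium, from 0 to 26 in stroma and from 0 to 98 in the interaction, while 10 counts in every sample lowered those by layer to 4316. DESeq2 called 28 by age in epithelium, 2 in stroma and 62 in the interaction. By form of code 2225 genes fell to 872 without mouse OM8. Without a filter the median log2 fold change of all genes moved from -0.05 to -0.56 by layer, and the Nr4a1 difference was then -4.61. Depth limits Fosl1, and Fosb, Atf3 and Nr4a1 in the lettered samples, where they have under 10 counts each.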
